A study of Mus musculus with 10 samples.

Results

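The neprilysin family, or M13 family, is a group of zinc metallopeptidases that sit mostly in cell membranes with the catalytic domain outside the cell, where they cut small peptides. The genes described here are *Mme*, *Mmel1*, *Ece1*, *Ece2*, *Ecel1* and *Phex*, taken from the 55414 gene identifiers of the count files by their mouse symbols, and all 6 were found. *Mme* entered as the gene that was higher in *WD1* cKO embryos, so its difference between the groups is given as a description without a test, while the other 5 were chosen by family only. *Kel*, which encodes the Kell blood group protein of erythroid cells and is the remaining mouse gene of the family, was added for comparison.

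In sensory tissue these enzymes are known as brakes and switches of peptide signals. Neprilysin, the product of *Mme*, ends the action of substance P, enkephalins, bradykinin and natriuretic peptides at the cell surface, and the endothelin-converting enzymes do the reverse for endothelin, which becomes active only after they cut its precursor. Other members are linked to inherited disease: variants of *ECEL1* cause distal arthrogryposis and variants of *PHEX* cause X-linked hypophosphataemia.

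The tissue was dorsal root ganglia (DRG) of mouse embryos at E18.5, measured by bulk RNA-sequencing in 5 control and 5 *WD1* cKO embryos. *WD1* cKO embryos carried 1 *Wnt1* Cre allele and were Dach1 flox/flox, and control embryos were Wnt1+/+ and also Dach1 flox/flox, so that floxed *Dach1* was shared and Cre was not. Cre under *Wnt1* control acts in the neural crest, from which sensory neurons, DRG glia and sympathetic neurons arise, and leaves *Dach1* intact in cells of other origin such as blood and endothelium. In the labels the genotypes of the groups stand the other way round from the titles. The titles were followed, and *Dach1* was at 35.0 to 41.5 CPM (counts-per-million of the library, after TMM scaling, which evens out library composition) in the libraries titled as control and at 19.1 to 20.7 CPM in those titled as *WD1* cKO.

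The libraries held between 19757596 and 34796562 counts. Markers of sensory neurons summed to at least 9119 CPM in every library and markers of Schwann cells and satellite glia to at least 841.3 CPM. Control replicate 3 stood apart by spinal cord markers (15.3 CPM in sum, against 0.147 to 1.42 CPM in the other libraries), and control replicate 5 by genes of sympathetic neurons (245 CPM in sum, against 20.3 to 53.8 CPM), which were listed after their values had been seen. In whole ganglia, fewer cells of a type and less RNA per cell cannot be told apart.

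The feature that makes these genes a family is the zinc site, in which a histidine and a glutamate are followed after a short gap by another histidine. The coding stretches below cover that site in the GENCODE transcripts of each gene on GRCm38, 5′ to 3′ on the coding strand, with the codons of the histidine, the glutamate and the other histidine in capitals. They are shown because every member encodes the same 3 residues there, while the third bases of their codons and the bases around them differ, and because *Mme* and *Mmel1*, the pair closest over these bases, had very different levels in these ganglia.
Mme (chr3:63362009-63362044, + strand, exon 18 of 23): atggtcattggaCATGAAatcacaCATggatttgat
Mmel1 (chr4:154893309-154893344, + strand, exon 19 of 24): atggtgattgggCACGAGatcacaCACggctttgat
Ece1 (chr4:137957160-137957195, + strand, exon 17 of 20): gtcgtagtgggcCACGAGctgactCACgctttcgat
Ece2 (chr16:20643878-20643913, + strand, exon 16 of 19): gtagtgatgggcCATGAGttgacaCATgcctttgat
Ecel1 (chr1:87149791-87149826, - strand, exon 13 of 18): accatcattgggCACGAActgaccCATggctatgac
Phex (chrX:157186216-157186251, - strand, exon 17 of 22): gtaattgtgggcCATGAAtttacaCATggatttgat

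Each of the 6 stretches lay within a single coding exon, and the pattern occurred 1 time in each coding sequence. Over the 36 bases shown, *Mme* and *Mmel1* differed at 6 positions, whereas *Mme* differed from *Ece1* at 15. Translated over their whole length, the 6 coding sequences ran to between 749 and 775 codons. *Ece1* and *Ece2* shared 62.4% of aligned residues and *Mme* and *Mmel1* shared 54.5%, while the most distant members, *Ecel1* and *Phex*, shared 32.0%. The glutamate that completes the zinc site followed 60 to 63 codons after the first histidine in the members, and 53 codons after it in *Kel*, which shared 26.4% to 35.9% of residues with them.

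To compare levels between genes, CPM were divided by the length of all annotated exons of a gene. *Ece1* had the highest level of the family, at 19.0 CPM per kb over the 10 libraries (range 17.2 to 19.8). *Mme* followed at 3.77 CPM per kb (2.58 to 4.78) and *Ece2* at 3.22 CPM per kb (2.82 to 3.52). In control embryos these latter levels lay within each other's spread, with *Mme* at 3.12 ± 0.365 and *Ece2* at 3.19 ± 0.226 CPM per kb (SD, n = 5), whereas in *WD1* cKO embryos *Mme* was at 4.41 ± 0.353 and *Ece2* at 3.25 ± 0.191 CPM per kb (SD, n = 5), with no overlap between their libraries.

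*Ecel1* was next at 1.02 CPM per kb, a mean that covered a range from 0.125 to 5.36. *Mmel1* (0.111 CPM per kb) and *Phex* (0.0975 CPM per kb) were the lowest members and did not differ beyond their spread, with *Phex* libraries at 0.0602 to 0.147 and *Mmel1* libraries at 0.0764 to 0.152 CPM per kb. *Kel* lay between *Ecel1* and this pair at 0.355 CPM per kb, with libraries from 0.0158 to 0.983. The place of *Ece2* depends on the annotation, since only 42.5% of its exon bases lie outside *Gm49333*, a readthrough gene on the same strand that was listed at 0 in all 10 libraries. With only those bases as its length, *Ece2* was at 7.56 CPM per kb and moved ahead of *Mme*.

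**Figure D1:**
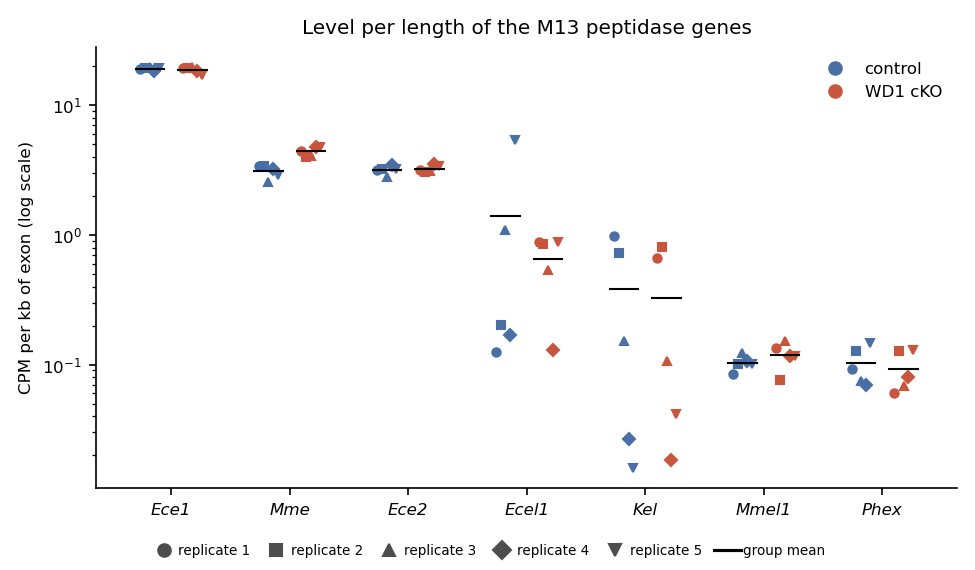
Level of each M13 gene in CPM per kb of exon (log axis), 1 symbol per library, with the group mean as a black line. Symbols mark replicate numbers, which were not treated as pairs. *Ece1* lies above all others at 17.2 to 19.8 CPM per kb, *Mme* and *Ece2* are close together in control embryos, and *Ecel1* (0.125 to 5.36) and *Kel* (0.0158 to 0.983) spread the most within the groups.

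As a share of all CPM of the 6 genes, *Ece1* made up 61.1% on average, *Mme* 26.2%, *Ece2* 9.95%, *Ecel1* 2.12%, *Phex* 0.370% and *Mmel1* 0.233%. The share of *Mme* ranged from 19.4% to 32.6% and that of *Ecel1* from 0.265% to 10.8% between libraries, whereas that of *Ece2* stayed between 9.27% and 11.4%.

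*Mme* (ENSMUSG00000027820, chr3:63241537-63386030, + strand, GRCm38), the neprilysin gene, encodes a surface peptidase also known as CD10, found among other cells on Schwann cells. It was at 39.3, 39.6, 29.8, 37.5 and 33.6 CPM in control replicates 1 to 5, and at 51.1, 46.5, 47.2, 55.2 and 54.7 CPM in *WD1* cKO replicates 1 to 5. Every *WD1* cKO library was above every control library, with control replicate 3 lowest of all and *WD1* cKO replicates 4 and 5 highest. Of all genes tested, 0.503% had groups that did not overlap in this direction, a share from which nothing is read here because *Mme* was chosen for its difference. The group means were 36.0 ± 4.21 and 50.9 ± 4.08 CPM (SD, n = 5), a ratio of 1.42. The fit of edgeR, a model of counts across all genes, gave a log2 fold change of 0.50 (SE 0.081, 95% interval 0.32 to 0.68), which is again a description.

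By size, the median absolute log2 fold change over the 17490 genes tested was 0.053. Of these genes, 135 including *Mme* had a log2 fold change at least as high as its own. Among the 12374 genes with a mean of at least 5 CPM, 13 including *Mme* did. Nothing is read from these ranks, because *Mme* was chosen for its difference. By their deviations from the group means, libraries with replicate numbers 4 and 5 correlated with each other (0.12 to 0.55). Their correlations with numbers 1 to 3 were negative (-0.61 to -0.17). The libraries were split by these numbers after the data had been seen. The log2 fold change of *Mme* was 0.41 (SE 0.10) among replicate numbers 1 to 3 and 0.63 (SE 0.068) among numbers 4 and 5. Without control replicate 3, the lowest library, it was 0.44 (SE 0.068). *Xist*, which marks female embryos, was over 900 CPM in 2 control and 4 *WD1* cKO libraries, and with *Xist* as a covariate the log2 fold change of *Mme* was 0.46 (SE 0.089).

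Because neprilysin is found on several cell types, marker lists of cell types in the ganglia were set beside *Mme*. All 7 connective tissue markers had a log2 fold change above 0 (median 0.11), as did 50.1% of all genes, with sums of 4552 to 6264 CPM in control and 5129 to 5915 CPM in *WD1* cKO libraries, and 2 of them had an unadjusted p under 0.05, namely *Postn* (log2 fold change 0.19) and *Lum* (0.22), with an adjusted p of 1.00 in edgeR for both. At that unadjusted threshold, 2.12% of all genes were higher in *WD1* cKO embryos. For Schwann and satellite glia, 6 of 8 markers were above 0 (median 0.048), with sums of 852 to 992 CPM and 841 to 1048 CPM. With the summed connective tissue markers as a covariate the log2 fold change of *Mme* was 0.61, and with the glia markers it was 0.50. Sensory neuron markers summed to 9119 to 11134 CPM in control and 10134 to 11663 CPM in *WD1* cKO libraries (median log2 fold change -0.0125). Their sum was lowest in control replicate 3 and highest in *WD1* cKO replicate 5. Median log2 fold changes were 0.034 for endothelium, -0.061 for mural cells and -0.046 for macrophages. The sums of all these lists overlapped between the groups. The part of these cells in the level of *Mme* was not tested beyond the covariates given.

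**Figure D2:**
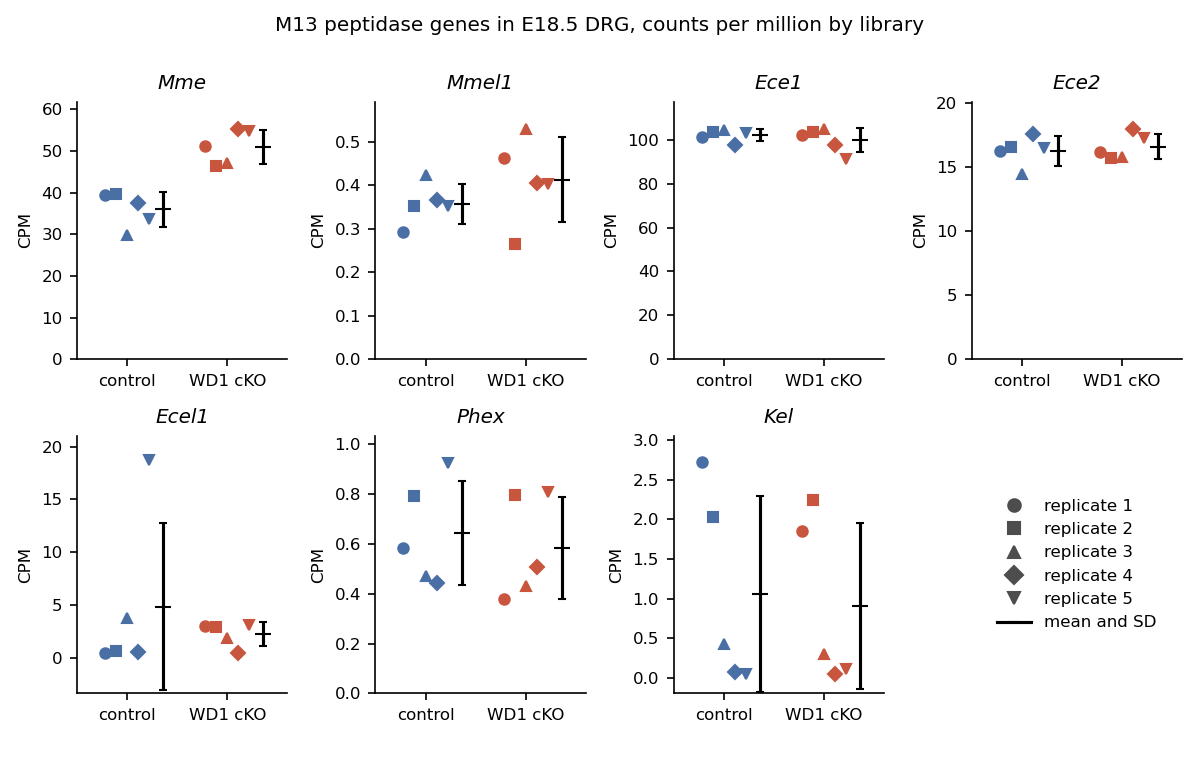
CPM of the 6 members and *Kel* in each library, by group, with the group mean and SD beside the points; every CPM axis includes 0, and SD bars wider than the mean reach below it. *Mme* separates the groups (29.8 to 39.6 against 46.5 to 55.2 CPM), and the libraries of the other genes overlap.

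*Mmel1* (ENSMUSG00000058183), which encodes a neprilysin-like enzyme that can be secreted, had 6 to 16 counts per library and did not pass the filter of at least 10 counts in at least 5 libraries. Its libraries were at 0.292, 0.352, 0.423, 0.367 and 0.352 CPM in control and at 0.463, 0.266, 0.529, 0.406 and 0.404 CPM in *WD1* cKO embryos. The groups overlapped, with both the lowest and the highest library among *WD1* cKO embryos. The means, 0.357 ± 0.0467 and 0.413 ± 0.0973 CPM (SD, n = 5), were not separated by a two-sided exact permutation test of log2 CPM (p = 0.333). Without *WD1* cKO replicate 2, the lowest library, the same exact test gave p = 0.0317 before adjustment, so the outcome rests on a library with 7 counts.

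*Ece1* (ENSMUSG00000057530), the endothelin-converting enzyme needed for neural crest derivatives such as enteric neurons, was the most even member. It was at 101, 104, 104, 97.5 and 103 CPM in control and at 102, 103, 105, 97.7 and 91.3 CPM in *WD1* cKO libraries. All libraries but *WD1* cKO replicate 5 lay in the same narrow range in both groups. The log2 fold change was -0.03 (95% interval -0.12 to 0.058, adjusted p = 1.00 in edgeR, exact permutation p = 0.548), so that the interval leaves out a change of the size of *Mme* in either direction.

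*Ece2* (ENSMUSG00000022842), a close relative of *Ece1* expressed in neural and endocrine cells and active in acidic compartments, behaved likewise at a lower level. Its libraries were at 16.3, 16.6, 14.4, 17.6 and 16.5 CPM in control and at 16.2, 15.7, 15.8, 18.0 and 17.3 CPM in *WD1* cKO embryos. The groups overlapped, with the lowest library a control and the highest a *WD1* cKO library. The log2 fold change was 0.026 (95% interval -0.11 to 0.16, adjusted p = 1.00 in edgeR, exact permutation p = 0.651). Reads in the bases shared with *Gm49333* may have been left out of the counts of *Ece2*.

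Set against *Ece1* in the same library, *Mme* was at 0.285 to 0.389 of the CPM of *Ece1* in control and at 0.450 to 0.599 in *WD1* cKO embryos. This ratio of CPM, which does not depend on library size, had means of 0.354 ± 0.0459 and 0.513 ± 0.0675 (SD, n = 5). It restates the values for which *Mme* was chosen and is given as a description.

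The genes of the endothelin system, whose precursors *Ece1* and *Ece2* products cut, were measured alongside. All 5 passed the filter and 4 had a log2 fold change above 0, with a median of 0.066, against 0.00022 over all genes tested. None had an adjusted p under 0.05 (0.04% of all genes did), and 1 had an unadjusted p under 0.05 (4.5% of all genes did, and 2.38% in its direction). That gene was *Edn2*, an endothelin precursor, with 13 to 25 counts per library, at 0.842 ± 0.0702 CPM in control and 0.577 ± 0.0914 CPM in *WD1* cKO embryos (SD, n = 5; log2 fold change -0.57, SE 0.17, adjusted p = 1.00 in edgeR). Its libraries did not overlap between the groups, which held in this direction for 0.555% of all genes. The receptors had far higher levels in CPM and no such difference, with *Ednrb*, the receptor of neural crest and glia, at 276 ± 42.5 and 289 ± 31.9 CPM and *Ednra*, found on smooth muscle and mesenchyme, at 18.9 ± 1.30 and 19.7 ± 2.50 CPM (SD, n = 5).

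Genes for substrates of neprilysin were also measured, at uneven levels, and 6 of them had a mean under 1 CPM. Of 18 genes for peptide precursors, 15 passed the filter, of which 6 had a log2 fold change above 0 and 9 below, with a median of -0.027, and none had an adjusted p under 0.05. *App*, the precursor of amyloid beta, was at 926 ± 60.3 and 908 ± 22.5 CPM, and *Calca*, the gene of calcitonin gene-related peptide in nociceptors, at 318 ± 70.4 and 315 ± 58.5 CPM (SD, n = 5). Those with an unadjusted p under 0.05 were *Vip* and *Cck*, both higher in *WD1* cKO embryos, as were 2.12% of all genes at that threshold.

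*Vip*, the gene of vasoactive intestinal peptide, was at 1.07, 1.41, 0.376, 1.14 and 1.58 CPM in control and at 2.69, 2.35, 1.52, 2.08 and 2.62 CPM in *WD1* cKO libraries. Only *WD1* cKO replicate 3 fell within the control range. Its log2 fold change was 1.00 (SE 0.28, adjusted p = 1.00 in edgeR), from 8 to 91 counts per library. *Cck*, the gene of cholecystokinin, had a log2 fold change of 0.54 (SE 0.17, adjusted p = 1.00 in edgeR), and its highest control library was control replicate 3, the library with spinal cord markers, at 4.84 CPM. Among replicate numbers 1 to 3 its log2 fold change was 0.25 (unadjusted p = 0.173 in edgeR), and it was 1.02 among numbers 4 and 5.

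Among 15 receptor genes of these peptides, 13 passed the filter, 8 had a log2 fold change above 0 and the median was 0.031. *Tacr3*, the receptor of neurokinin B, had the only unadjusted p under 0.05 among them, where 2.12% of all genes passed in its direction. It was at 2.34, 2.42, 2.54, 3.09 and 2.72 CPM in control and at 3.49, 3.34, 3.08, 4.47 and 4.96 CPM in *WD1* cKO libraries, which overlapped by a single library of each group. The log2 fold change was 0.56 (SE 0.15, adjusted p = 0.935 in edgeR). The receptors with the highest CPM, the natriuretic peptide receptors *Npr2* and *Npr3*, had log2 fold changes of -0.03 and 0.059.

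Peptidases outside the family that share substrates with neprilysin were even between the groups. None of the 13 had an unadjusted p under 0.05, 6 were above 0 and 7 below, and the median log2 fold change was -0.02. *Lnpep*, a cell-surface aminopeptidase, and *Prep*, a cytosolic prolyl peptidase, had the highest CPM, at 208 ± 16.3 and 212 ± 17.5 CPM for *Lnpep* and 180 ± 7.12 and 174 ± 9.27 CPM for *Prep* (SD, n = 5). None of the 8 enzymes and helpers that make peptides from precursors had an unadjusted p under 0.05 either, with a median of -0.02. Carboxypeptidase E (*Cpe*) was at 682 ± 35.9 and 672 ± 6.72 CPM and the proprotein convertase *Pcsk2* at 217 ± 18.3 and 227 ± 14.6 CPM (SD, n = 5).

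**Figure D3:**
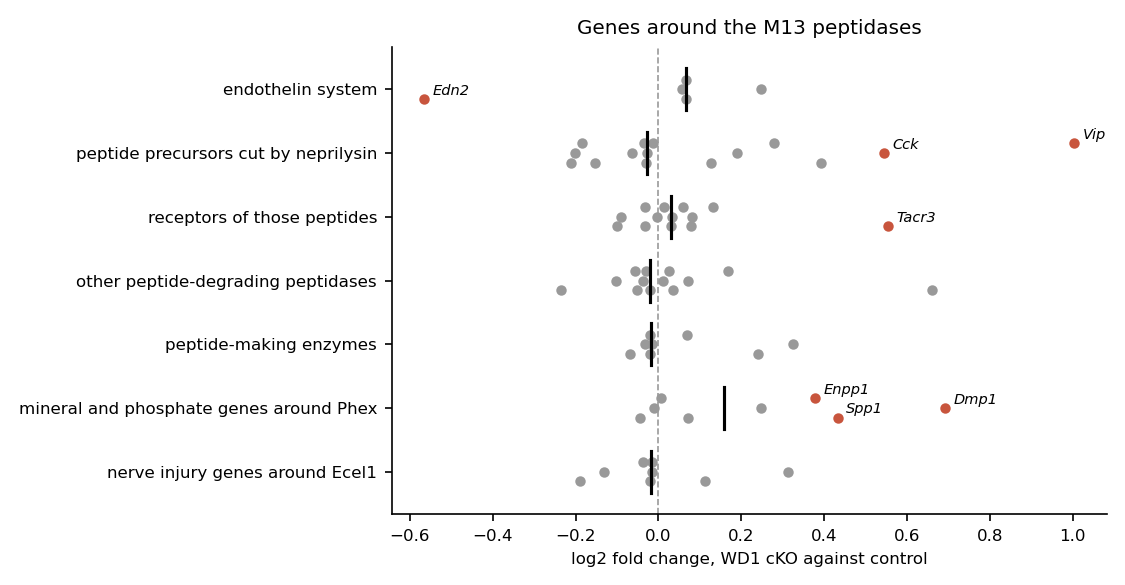
log2 fold change of *WD1* cKO against control for every tested gene of 7 lists around the family, 1 point per gene, with the list median as a black bar and genes with an unadjusted p under 0.05 in red and named. List medians lie between -0.027 and 0.16, and the named genes are *Edn2* below 0 and *Vip*, *Cck*, *Tacr3*, *Spp1*, *Dmp1* and *Enpp1* above it.

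*Ecel1* (ENSMUSG00000026247, chr1:87147655-87156521, - strand, GRCm38) encodes the damage-induced neuronal endopeptidase, which rises in neurons after nerve injury and is needed for motor axons to branch in muscle. It was at 0.438, 0.705, 3.81, 0.588 and 18.8 CPM in control and at 3.07, 2.96, 1.89, 0.457 and 3.11 CPM in *WD1* cKO libraries. Control replicate 5 was far above all others, control replicates 1, 2 and 4 and *WD1* cKO replicate 4 were low, and the remaining libraries lay between. The highest library was 42.8 times the lowest, against 1.85 times for *Mme* and 1.15 times for *Ece1*. Its sign was therefore set by the measure, since the edgeR log2 fold change was -1.05 (SE 0.88, 95% interval -2.97 to 0.86, adjusted p = 1.00), while mean log2 CPM was higher in *WD1* cKO embryos by 0.16 (exact permutation p = 0.968). Without control replicate 5 the fitted log2 fold change was 0.77 (SE 0.63, adjusted p = 0.923 in edgeR).

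The genes that followed the spread of *Ecel1* most closely included genes of sympathetic neurons. Over the 10 libraries, after subtraction of the group means, the genes with the highest Pearson correlation to *Ecel1* among 12346 genes at 5 CPM or more were *Dbh* (r = 0.953, Spearman's rho = 0.915), *Chrna3* (0.943, 0.855), *Slc6a2* (0.933, 0.891), *Spg7* (0.920, 0.927) and *Spcs2* (0.904, 0.927). *Dbh* makes noradrenaline from dopamine, *Slc6a2* is the noradrenaline transporter and *Chrna3* is a subunit of the nicotinic receptor of autonomic ganglia. *Chrna3*, *Spg7* and *Spcs2* were not on the list of sympathetic genes. Without the libraries where *Ecel1* lay farthest from its median, control replicates 5 and 1, r was 0.979 for *Dbh* and 0.961 for *Slc6a2*. The points share library depth and dissection, and the correlations are given as descriptions.

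In control replicate 5, *Dbh* was at 53.1 CPM and *Slc6a2* at 112 CPM, against at most 7.57 CPM and 10.8 CPM in the other libraries. The transcription factor gene *Hand2* was at 5.23 CPM there, against at most 1.01 CPM elsewhere. *WD1* cKO replicate 4, where *Ecel1* was at its lowest in that group, was at 0.203 CPM for *Dbh* and listed at 0 for *Hand2*. Control replicate 3, second highest for *Ecel1* at 3.81 CPM, was the library with spinal cord markers. It was at 38.3 CPM for the sympathetic sum and at 3.34 CPM for *Dbh*. The part of spinal cord in its *Ecel1* level was not tested. All 6 tested genes of the sympathetic list had a log2 fold change below 0, with a median of -1.14, and none had an unadjusted p under 0.05. These fits included control replicate 5, the highest library for each gene. The highest of the other controls was at 3.34 CPM for *Dbh* and 3.57 CPM for *Slc6a2*. The highest *WD1* cKO library was at 7.57 and 10.8 CPM. The other tested genes of the list had the same order, except *Th* (33.7 CPM in the other controls, 30.3 CPM in *WD1* cKO). The list was not tested without control replicate 5. With the summed level of the sympathetic list as a covariate, the log2 fold change of *Ecel1* was 0.41 (SE 0.43, adjusted p = 1.00 in edgeR). That sum included *Dbh* and *Slc6a2*, which were among the genes most like *Ecel1* in these same libraries. The covariate was therefore not independent of the spread of *Ecel1*, and nothing is concluded from it. *Mme* was second lowest among controls in control replicate 5, and its log2 fold change was 0.48 without that library and 0.48 with the sympathetic covariate.

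**Figure D4:**
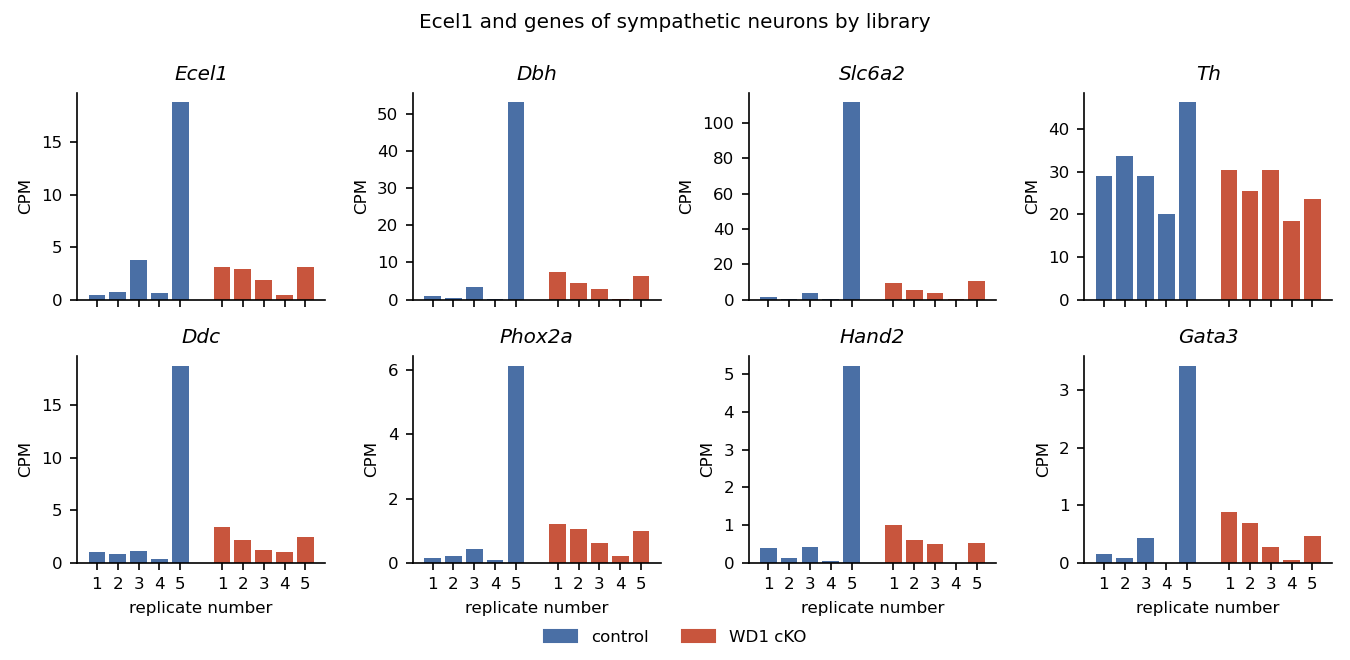
CPM of *Ecel1* and of 7 genes of sympathetic neurons in each library (bars from 0, control in blue and *WD1* cKO in red, replicate numbers on the horizontal axis). Control replicate 5 holds the tallest bar in all 8 panels, at 18.8 CPM for *Ecel1*, 53.1 for *Dbh* and 112 for *Slc6a2*.

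Of 9 genes linked to nerve injury, the setting in which *Ecel1* is best known, 8 passed the filter, and 2 had a log2 fold change above 0 and 6 below (median -0.02). None had an unadjusted p under 0.05. *Gap43*, of growing axons, was at 885 ± 46.2 and 863 ± 39.7 CPM and *Stat3* at 318 ± 13.5 and 313 ± 6.66 CPM (SD, n = 5). The genes above 0, named after their values were seen, were the injury-induced transcription factor genes *Atf3* (log2 fold change 0.31, SE 0.14, adjusted p = 1.00 in edgeR) and *Jun* (0.11, SE 0.069, adjusted p = 1.00).

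*Phex* (ENSMUSG00000057457), an X-linked gene of bone and tooth cells that restrains the phosphate hormone Fgf23, was near the limit of detection with 9 to 28 counts per library. It was at 0.584, 0.793, 0.470, 0.441 and 0.923 CPM in control and at 0.379, 0.797, 0.430, 0.508 and 0.807 CPM in *WD1* cKO libraries. The groups overlapped, and replicates 2 and 5 were the highest in both. The log2 fold change was -0.11 (95% interval -0.74 to 0.52, adjusted p = 1.00 in edgeR, exact permutation p = 0.619), an interval that also holds a difference as large as that of *Mme*. Bone and cartilage markers summed to 83.5 to 101 CPM in control and 89.9 to 108 CPM in *WD1* cKO libraries.

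Of 9 mineral and phosphate genes around *Phex*, 8 passed the filter, 6 had a log2 fold change above 0 and the median was 0.16. None had an adjusted p under 0.05, and 3 had an unadjusted p under 0.05, where 2.12% of all genes did so in this direction. They were *Dmp1*, a mineral matrix protein gene with 11 to 41 counts per library (log2 fold change 0.69), *Spp1*, which encodes osteopontin (0.43), and *Enpp1*, which makes pyrophosphate, an inhibitor of mineral (0.38), each with an adjusted p of 1.00 in edgeR. *Spp1* was at 14.5, 12.5, 11.0, 10.5 and 10.5 CPM in control and at 12.8, 18.9, 11.1, 18.3 and 18.4 CPM in *WD1* cKO libraries, so 3 *WD1* cKO libraries lay above the controls and the others among them. Its log2 fold change was 0.17 among replicate numbers 1 to 3 (unadjusted p = 0.402 in edgeR) and 0.81 among numbers 4 and 5, and that of *Dmp1* was 0.40 (unadjusted p = 0.172 in edgeR) and 1.04. *Fgfr1*, the receptor, and *Ankh*, a pyrophosphate exporter, had the highest CPM of the list and log2 fold changes of -0.01 and -0.04.

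**Figure D5:**
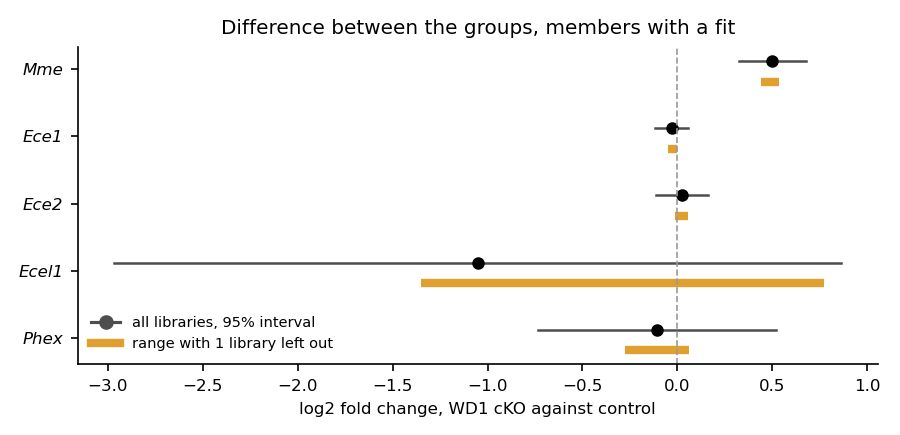
log2 fold change of *WD1* cKO against control for the 5 members that passed the filter (black points, with the 95% interval of the edgeR fit) and the range over fits with 1 library left out (yellow bars). *Mme* stays between 0.44 and 0.54, *Ece1* and *Ece2* stay within 0.06 of 0, and *Ecel1* runs from -1.35 to 0.77.

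Across the family, none of the 4 members besides *Mme* that passed the filter had an adjusted p under 0.05, nor an unadjusted one, and the exact permutation tests of the 5 members besides *Mme* gave p-values of 0.814 to 0.968 after Benjamini-Hochberg adjustment over the 5, where 5 against 5 libraries cannot go below 0.00794 before adjustment. *Kel* was at 2.73, 2.03, 0.423, 0.0735 and 0.0439 CPM in control and at 1.85, 2.24, 0.298, 0.0508 and 0.115 CPM in *WD1* cKO libraries. It was high in replicates 1 and 2 of both groups and low in replicates 4 and 5, as was *Hbb-bs*, a globin gene of erythroid cells, at 861 to 1292 CPM in control replicates 1 and 2 and at 88.8 to 108 CPM in control replicates 4 and 5. *Kel* had 1 to 59 counts per library and did not pass the filter.

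The genes whose deviations from the group means were most like those of *Mme*, over the 10 libraries and 12345 genes at 5 CPM or more, were *Ptpn4* (r = 0.961, rho = 0.927), *Ttc14* (0.954, 0.903), *Nfat5* (0.951, 0.939), *Pkd1* (0.944, 0.964) and *Dap3* (0.941, 0.927). In all, 31 genes had an r over 0.9 with *Mme* and 7 with *Ecel1*. The 5 genes named for *Mme* had log2 fold changes between the groups of -0.05 to 0.0027, so they followed *Mme* within the groups and differed little between them. Without control replicate 3 and *WD1* cKO replicate 4, where *Mme* lay farthest from its median, r was 0.893 to 0.953. Ranked by Spearman's rho instead, 1 of the 5 genes named for *Mme* and 3 of the 5 named for *Ecel1* were again among the 5 highest.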

How the data were processed

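Per the labels and the methods of the study, the authors used a stranded mRNA kit, bcl2fastq 2.20.0.422, STAR 2.7.8a on GRCm39, and featureCounts 2.0.1 for reads per gene. They deposited these counts without normalization. The strand setting and the treatment of reads that map to several genes are not given in the sources used here. Libraries were grouped by title, and each was counted as 1 embryo.

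Groups were compared with edgeR 4.0.16 in R 4.3.3 (TMM scaling, at least 10 counts in at least 5 libraries, quasi-likelihood test, Benjamini-Hochberg adjustment over 17490 genes), the test having been tested on simulated data. Single genes were compared by two-sided exact permutation of log2 CPM (prior count 1). CPM per kb used union exons, and symbols, lengths, coordinates and coding stretches came from GENCODE on GRCm38, so lengths may differ from those of the counting. Symbols matched 52081 of 55414 identifiers. Residue identities were computed from translated coding sequences.

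Members and lists were chosen with earlier results of these data known. Named genes are the members, *Kel*, *Dach1*, list genes with an unadjusted p under 0.05 or the 2 highest CPM of a list, and the 5 genes most like *Mme* and *Ecel1*; *Hbb-bs*, *Hand2*, *Atf3* and *Jun* were named after their values were seen. Alternatives were DESeq2 1.42.0 and its size factors, no filter, a block, *Xist*, marker and number-split covariates, subsets and each library left out.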

Additional observations from a re-analysis of the deposited data

Results flagged for a closer look

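*Ecel1* stood out in control replicate 5, at 18.8 CPM, where the other control libraries were at 0.438 to 3.81 CPM. The gap to the nearest library was 0.816 of the range of the group, above the critical value of 0.71 of Dixon's test for 5 samples. This was the only such gap among the 14 sets of 5 libraries examined (the 6 members and *Kel* in each group), where chance alone gives about 0.7. Genes of sympathetic neurons were highest in the same library, and their part in the level of *Ecel1* was not tested beyond the covariate given above.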

How the results depend on the processing

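The log2 fold change of *Mme* stayed above 0 under all 21 alternatives, from 0.41 (replicate numbers 1 to 3) to 0.63 (numbers 4 and 5), and from 0.44 to 0.54 with each library left out. Nothing is read from its constant sign, because *Mme* was chosen for its difference. Its groups did not overlap, so fits on fewer libraries were bound to keep that sign. No member besides *Mme* reached an unadjusted p under 0.05 under any alternative in the fits across genes, whereas *Mmel1* had an exact permutation p of 0.0317 without *WD1* cKO replicate 2. Signs turned where the value was small or rested on few libraries: *Ecel1* was at 0.77 without control replicate 5, 0.67 among numbers 1 to 3 and 0.41 with the sympathetic covariate; *Phex* at 0.060 without control replicate 5, 0.0070 without *WD1* cKO replicate 1, 0.053 among numbers 4 and 5 and 0.015 with the connective tissue covariate; *Ece2* at -0.014 without the third control and -0.0024 without *WD1* cKO replicate 4; and *Ece1* at 0.0043 among numbers 1 to 3. With each library left out, these values ranged from -1.35 to 0.77 for *Ecel1*, from -0.27 to 0.060 for *Phex* and from -0.014 to 0.057 for *Ece2*. The cause was not tested. All alternatives on subsets and markers were chosen after seeing the data.

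Of all genes, 7 had an adjusted p under 0.05, against 20 with DESeq2, 4 with *Xist*, 11 with a term for numbers 1 to 3 against 4 and 5, 3 and 2 within those subsets, 13 with the connective tissue and 3 with the sympathetic covariate, and 3 to 6 with 1 library left out. *Vip* passed only with the connective tissue covariate (adjusted p = 0.0431, edgeR).

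Replicate numbers were not treated as pairs in the main fit. Same-number correlations were -0.065 for number 2 and 0.45 to 0.55 for the others. Of 10 libraries, 7 correlated best with the library of the same number in the other group. The study describes the controls as littermates and does not say which libraries came from the same litter. What libraries with the same number share was not tested. With the number as a block, *Mme* was at 0.51 and *Ecel1* at -0.35. With 6 to 28 counts per library, depth limits *Mmel1* and *Phex*.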
